A study of Mus musculus with 6 samples.

Results

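Liver RNA levels of 10 major urinary protein genes, Mup3, Mup7, Mup10, Mup13, Mup14, Mup15, Mup17, Mup19, Mup20 and Mup21, were read from deposited RNA-Seq tables of 6 house mice. The genes were taken by name with no filter on their level, but were chosen with earlier results of these data known. They came out of 49366 gene names listed for 5 of the mice, and 32 other genes and pseudogenes named Mup were listed on the same chromosome. The mice were 3 inbred C57BL/6 laboratory males and 3 outbred wild mice, of which mouse 1 was male and mice 2 and 3 were female. The laboratory males were adults killed on arrival from a breeder. The wild mice were adults trapped at 2 sites, mice 1 and 2 at Murrumbateman and mouse 3 at Yass. They were then housed for months before sampling. Liver had been sampled at death and stored frozen without fixation. Strain, origin, housing and closeness to the C57BL/6 reference genome therefore differed together, all females were wild, and the only wild male was the lightest and shortest of the 6 animals in the study's specimen list.

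Major urinary proteins are small secreted lipocalins, barrel-shaped proteins with a pocket that holds small volatile molecules. The liver makes them, the kidney passes them into urine, and in house mice they release pheromones slowly and carry individual and sexual identity in scent marks. Male liver makes far more of them than female liver, under growth hormone pulses, STAT5b and other hormonal signals. Most of the genes lie in one cluster of recent copies, and a few older, divergent copies lie at its edges. Mup20 encodes darcin, a protein pheromone by which a male's urine attracts females.

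The stretches below show how the members differ in coding sequence, since this decides how well reads of 100 bases can be told apart. Each is 100 coding bases of a GENCODE M21 transcript (GRCm38), written 5′ to 3′ from coding base 21 for Mup17, Mup15 and Mup7, from base 24 for Mup20 and Mup21 and from base 33 for Mup3, and capitals mark bases that differ from Mup17.
Mup17: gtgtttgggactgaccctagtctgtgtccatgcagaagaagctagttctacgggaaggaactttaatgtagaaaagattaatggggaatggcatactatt
Mup15: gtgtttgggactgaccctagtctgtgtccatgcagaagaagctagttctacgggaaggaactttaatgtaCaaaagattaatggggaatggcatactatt
Mup7: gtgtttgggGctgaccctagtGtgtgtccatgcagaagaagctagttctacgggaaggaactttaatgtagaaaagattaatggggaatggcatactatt
Mup20: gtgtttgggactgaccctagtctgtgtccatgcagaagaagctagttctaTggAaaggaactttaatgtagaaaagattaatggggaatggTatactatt
Mup3: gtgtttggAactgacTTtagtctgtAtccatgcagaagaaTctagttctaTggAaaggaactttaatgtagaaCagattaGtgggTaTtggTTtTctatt
Mup21: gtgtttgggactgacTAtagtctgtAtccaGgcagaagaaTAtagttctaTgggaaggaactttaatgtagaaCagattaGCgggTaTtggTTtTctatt
Mup10, Mup13 and Mup19 were identical to Mup17 over this stretch, and Mup14 was identical to Mup7. Mup15 differed from Mup17 at 1 base, Mup7 at 2, Mup20 at 3, Mup3 at 14 and Mup21 at 15.

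Over the whole coding sequence, 7 members (Mup7, Mup10, Mup13, Mup14, Mup15, Mup17 and Mup19) were 98.3% to 99.4% identical to each other. They are called the near-identical members here. Mup3, Mup20 and Mup21, the divergent members, shared 82.3% to 91.0% with those 7 and 87.0% to 94.7% among themselves. Of all 100-base stretches of their transcripts, between 0% (Mup19) and 40.6% (Mup17) of those of the near-identical members occurred in no other annotated gene, with a median of 12.9%. The share was 97.1% for Mup3, 95.5% for Mup21 and 61.2% for Mup20. FPKM corrects fragment numbers for transcript length and for library size, so levels can be compared between genes. With so much shared sequence, the split of the signal among the near-identical members is uncertain, and they are not independent readings. Mup3 and Mup21 shared little with other annotated genes. Alternate sequences of the reference hold further entries of both, which these shares do not count, and the Mup21 entries differed in level. The reads of all mice were aligned to the C57BL/6 reference, in which the copies of the wild mice are not represented.

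All 10 members lay on the minus strand of chromosome 4 of GRCm38, spread over 2.08 Mb. In order they were Mup7 (chr4:60066469-60070475), Mup10 (chr4:60578260-60582276), Mup13 (chr4:61224308-61228252), Mup14 (chr4:61300037-61304089), Mup15 (chr4:61435787-61439833), Mup17 (chr4:61591929-61595865), Mup19 (chr4:61778324-61782355), Mup20 (chr4:62011337-62054143), Mup3 (chr4:62083476-62087317) and Mup21 (chr4:62147832-62150841). The divergent members were thus neighbours at one end of the row. The transcripts used had 7 exons in 9 members and 6 in Mup21.

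The 250 bases before the annotated start are shown for the divergent members that have an entry, Mup3 and Mup21, and for Mup7 as a near-identical member (RefSeq, GRCm38.p6, minus strand, written 5′ to 3′). Capitals mark ATCAATA or TATATAA on either strand.
Mup3 (chr4:62087318-62087567): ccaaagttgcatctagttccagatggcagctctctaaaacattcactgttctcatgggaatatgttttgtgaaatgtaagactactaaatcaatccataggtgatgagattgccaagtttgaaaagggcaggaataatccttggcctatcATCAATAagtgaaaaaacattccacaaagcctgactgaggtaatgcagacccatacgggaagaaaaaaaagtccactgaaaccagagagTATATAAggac
Mup21 (chr4:62150842-62151091): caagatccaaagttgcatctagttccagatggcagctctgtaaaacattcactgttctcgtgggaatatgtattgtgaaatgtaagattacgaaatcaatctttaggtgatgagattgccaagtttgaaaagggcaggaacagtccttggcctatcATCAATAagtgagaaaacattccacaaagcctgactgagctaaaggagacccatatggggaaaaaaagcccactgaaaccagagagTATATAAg
Mup7 (chr4:60070476-60070725): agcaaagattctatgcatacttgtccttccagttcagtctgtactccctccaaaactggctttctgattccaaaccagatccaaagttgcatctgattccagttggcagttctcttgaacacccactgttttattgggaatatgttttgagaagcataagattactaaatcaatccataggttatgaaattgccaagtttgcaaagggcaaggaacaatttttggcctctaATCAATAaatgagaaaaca
ATCAATA was present in 8 of 8 member promoters and in 1.86% of 32851 mouse promoters of the same length. TATATAA was present in 6 of 8 and in 3.0% of all. The windows of Mup7 and Mup14, which lack it, end before the place where TATATAA lies in the other copies. Its absence there therefore reflects where the windows end and does not show that these genes lack it. The STAT5 motif TTCNNNGAA was in 0 of 8 and in 7.02% of all, which says only that these letters are not in these windows. The genes arose as copies, so the 8 are not independent. Mup13 and Mup20 had no entry.

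Estimates were complete for the wild mice and laboratory mouse 3 and incomplete for the other laboratory mice. All 10 members had an FPKM on chromosome 4 in laboratory mouse 3 and in each wild mouse. In laboratory mouse 2 Cufflinks marked 4 members (Mup10, Mup13, Mup14 and Mup19) as failed estimates because of too many fragments, leaving 6. In laboratory mouse 1, where failures are not marked, 2 members (Mup17 and Mup21) had an estimate. A further 3 members (Mup7, Mup10 and Mup19) were listed at 0 there, and these zeros were treated as missing. Laboratory mouse 3 and the wild male had estimates far above 0 for all 3, and laboratory mouse 2 for Mup7 only. Taken as measured, the 0 of Mup7 would turn its difference between laboratory and wild mice negative. The last 5 were listed for that mouse only on an alternate sequence of the reference, 2 of them with an estimate and 3 at 0. Missing values were not imputed, and 6 of the 10 members had at least 2 values in each group and entered the tests.

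The Y-linked gene Eif2s3y had 12.2 to 26.7 FPKM in the 4 males and 0 in both females, and Xist 7.18 and 40.6 FPKM in the females, so the labelled sexes fitted. Of 9 hepatocyte markers, 5 had an estimate in every mouse, and they summed to 28262 to 39416 FPKM in laboratory and 18264 to 20394 in wild mice. Kupffer cell markers summed to 11.5 FPKM in the wild male, 42.1 and 109.6 in wild mice 2 and 3, and 28.0 to 36 in laboratory mice. All 4 markers of the submandibular and lacrimal glands, other known sites of Mup expression, were at 0 in every mouse. Taking laboratory mouse 2 as 1, relative depth from genes with about 1 read was 0.922 in laboratory mouse 3 and 1.14, 1.36 and 1.18 in wild mice 1 to 3. The tables hold no counts, so absolute depth is unknown. In bulk liver, fewer hepatocytes and less RNA per hepatocyte cannot be told apart.

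The divergent members had the widest range. Mup3 had 10395 and 5946 FPKM in laboratory mice 2 and 3, 2027 in the wild male, and 131 and 1.91 in wild females 2 and 3. Every laboratory value lay above every wild value, and the 2 females differed 68.7-fold. Mup20, the darcin gene, had 8213 and 4808 FPKM in laboratory mice 2 and 3, 1506 in the wild male, and 9.45 and 0.335 in wild females 2 and 3. It went from one of the 20 highest entries in the livers of laboratory males to rank 14610 in wild female 3. Mup21 was measured in all 6 mice, with 256, 242 and 121 FPKM in the laboratory males, 23.7 in the wild male, with 2.31 and 0.245 for the females. It was the lowest of the members with an estimate on chromosome 4 in every mouse, and again the groups did not overlap. Its entry on an alternate sequence of the reference had 9.67 FPKM in wild female 2, slightly above Mup20.

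The near-identical members were more even. Mup17, the member with the largest stretch of its own sequence among them, had 6455, 3836 and 3376 FPKM in the laboratory males, 4342 in the wild male, and 290.3 and 419 in females 2 and 3. Here the wild male stood among the laboratory males in FPKM, and only the females lay below. Mup7 had 7264 and 2851 FPKM in laboratory mice 2 and 3, 2066 in the wild male, with 66.5 and 336 for the females. Mup15 had 5351 and 2857 FPKM in the same laboratory mice, 2328 in the wild male, with 60.0 and 479 for the females. In both genes the laboratory males were above the wild male and the wild male above the females.

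The other 4 had a laboratory value from mouse 3 alone. Mup10 had 3936 FPKM there, against 3603 in the wild male and 101 and 922 in females 2 and 3. Mup13 had 3262 FPKM there, against 2082 in the wild male, with 113 and 563 for the females. Mup14 had 3404 FPKM there, against 2047 in the wild male, with 73.4 and 645 for the females. Mup19 had 2823 FPKM there, against 3110.4 in the wild male, with 197 and 759 for the females. The wild male thus exceeded this single laboratory value in FPKM for Mup19 and came within 1.09-fold of it for Mup10.

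**Figure D1:**
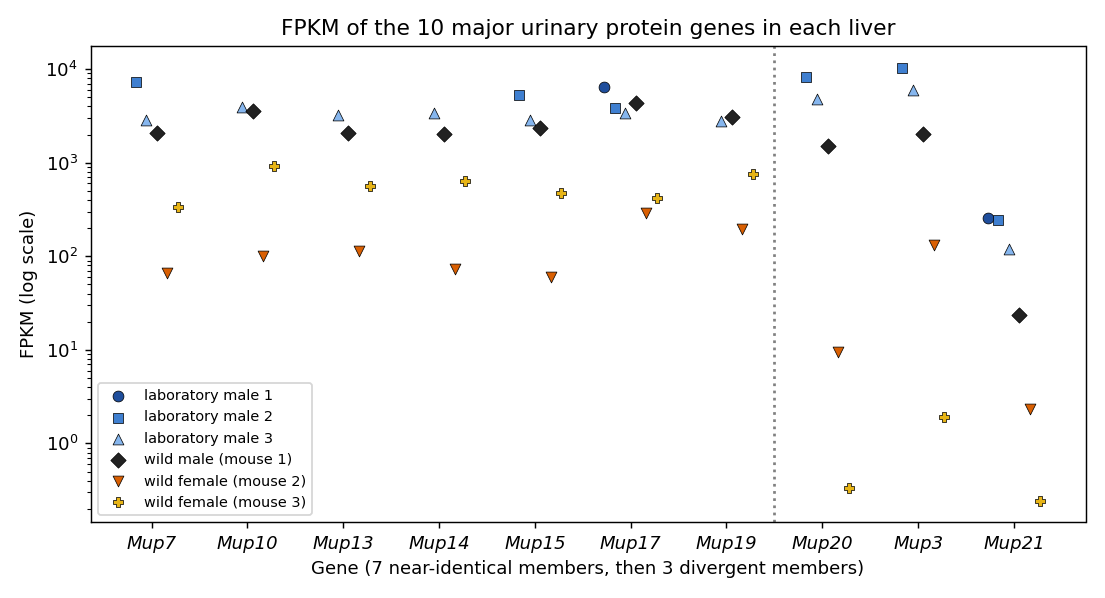
FPKM (log axis) of the 10 members on chromosome 4 in each liver, 1 point per mouse, with the 7 near-identical members left of the dotted line and the 3 divergent members right of it. Absent points are missing estimates. The wild male lies near the laboratory males for the near-identical members, and the order of the 2 wild females is opposite on the 2 sides of the line.

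In order of level in laboratory mouse 3, the only laboratory mouse with all 10, Mup3 and Mup20 came first, then Mup10, Mup14, Mup17, Mup13, Mup15, Mup7 and Mup19, and Mup21 last. The near-identical members spanned only 2823 to 3936 FPKM there. Single mice give no spread for these neighbours, and Mup7, next to last of the 7 in mouse 3, was the highest of the 3 of them measured in laboratory mouse 2, so their order within this range is not resolved. In the wild male Mup17 was the highest member, and the 7 ranged from 2047 to 4342 FPKM. The 10 members together held 4.59% of the summed FPKM of all entries on chromosomes in laboratory mouse 3. The share was 3.09% in the wild male, 0.152% in wild female 2 and 0.607% in wild female 3. With all Mup genes on chromosome 4 counted, pseudogenes aside, the shares were 8.28%, 6.18%, 0.304% and 1.61%. Failed estimates add nothing to the summed FPKM, so these shares can be too high by an unknown amount. Over all entries there were 10 failed estimates in laboratory mouse 3 and 4, 5 and 4 in wild mice 1 to 3. The sums of laboratory mice 1 and 2 rest on 2 and 6 members and are too low to compare.

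Whether the laboratory males differed from the wild mice was tested on zFPKM, the score deposited by the authors. It places log2 FPKM on a scale whose 0 is the peak of expressed genes in each liver and whose unit is an SD fitted there. All 6 tested members were higher in laboratory mice (limma, adjusted p under 0.05), against 7.21% of 18632 tested genes that were higher and 7.25% that were lower. The differences in zFPKM were 3.20 ± 0.13 (SE) for Mup20, 2.57 ± 0.11 for Mup3, 2.41 ± 0.16 for Mup21, 1.51 ± 0.11 for Mup7, 1.38 ± 0.11 for Mup15 and 1.07 ± 0.09 for Mup17, while the median over all tested genes was 0.01. The adjusted p was at most 8.0e-29 in limma with a trended prior, but this prior set an SE far below the spread of these genes. The wild mice had SDs of 0.733 to 2.08 zFPKM (n = 3) and the laboratory mice 0.017 to 0.270 (n = 2 or 3). In limma without the trend, 1 of 6 members passed (Mup21, adjusted p = 0.037) and the others had adjusted p of 0.127 to 0.173. With a robust prior, 0 of 6 passed in limma, the lowest adjusted p was 0.099, and 1 had an unadjusted p under 0.05.

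Without a model, the FPKM of laboratory and wild mice did not overlap in 5 of the 6 tested members, laboratory mice being higher, against 12.1% of all tested genes, while 43.7% of genes were without overlap in the other direction. The exception was Mup17. Of the 5, only Mup21 had a value from all 3 laboratory mice, and Mup3, Mup7, Mup15 and Mup20 had 2. Most genes had 3, and fewer values overlap less easily, so the share of all genes is not a like measure. Taken as measured, the 0 of laboratory mouse 1 would make Mup7 overlap. The ratio of laboratory to wild mean FPKM was 23.6 for Mup21, 12.9 for Mup20, 11.3 for Mup3, 6.15 for Mup7, 4.29 for Mup15 and 2.71 for Mup17. For Mup21 it depended on the copy read, and was 9.66 for its entry on an alternate sequence of the reference, below Mup20 and Mup3. As mean ± SD these were 206 ± 74.2 against 8.74 ± 13.0 FPKM for Mup21 (n = 3 and 3) and 4556 ± 1661 against 1684 ± 2303 for Mup17 (n = 3 and 3). They were 6511 ± 2408 against 505 ± 866 for Mup20 and 8171 ± 3146 against 720.1 ± 1134 for Mup3 (n = 2 and 3). A two-sided exact permutation test of the mean FPKM gave p = 0.1 for Mup3, Mup7, Mup20 and Mup21, p = 0.2 for Mup15 and p = 0.3 for Mup17. This was done for 6 members, and 0.1 is the smallest p that 2 or 3 mice against 3 can give. The summed FPKM of the 5 hepatocyte markers above was also higher in every laboratory mouse than in every wild mouse, and its part in the result was not tested.

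The wild male was above both wild females for all 10 members, against 30.7% of genes. Its FPKM exceeded that of female 2 by 10.2-fold (Mup21) to 159-fold (Mup20) and female 3 by 3.17-fold (Mup14) to 4496-fold (Mup20). In the fit with origin and sex, the male minus female difference was 3.26 ± 0.46 for Mup20, 1.26 ± 0.14 for Mup17 and 1.26 ± 0.23 for Mup7 (limma, adjusted p = 0.0060, 0.00070 and 0.041). These 3 of 6 tested members passed, against 0.0698% of genes that were higher and 0.317% that were lower in males. Mup3 (2.38 ± 0.54, adjusted p = 0.099), Mup21 (1.44 ± 0.38, adjusted p = 0.153) and Mup15 (1.25 ± 0.28, adjusted p = 0.087) did not pass in limma. The median of all genes in this contrast was -0.38 zFPKM, so relative to it each difference is larger by that amount. The contrast sets 1 male against 2 females within the wild mice. It assumes that a lone male varies like the other mice, and without the trend 0 of 6 passed in limma, with 6 at an unadjusted p under 0.05, while a robust prior left 1, Mup17.

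Laboratory males were also set against the wild male in the same fit. Mup21 was higher in laboratory males by 1.46 ± 0.35 zFPKM (limma, adjusted p = 0.027), 1 of 6 tested members, against 6.09% of genes higher and 1.34% lower. The other differences were 1.02 ± 0.46 for Mup20, 0.98 ± 0.54 for Mup3, 0.68 ± 0.23 for Mup7, 0.54 ± 0.28 for Mup15 and 0.23 ± 0.13 for Mup17, with adjusted p of 0.099 to 0.310 in limma. Without the trend, and with a robust prior, 0 of 6 passed in limma, with 1 at an unadjusted p under 0.05 in each. The median of all genes was 0.28, slightly above the value of Mup17, which turned to -0.047 when the mice were centred on their medians. In FPKM the laboratory values were 2.93 to 5.13 times that of the wild male for Mup3, 3.19 to 5.46 times for Mup20 and 5.10 to 10.8 times for Mup21. On the alternate copy of Mup21 they were 2.24 to 4.75 times that level, and its difference of 0.92 zFPKM did not pass (limma, adjusted p = 0.327), which left 0 of 6 members. For the near-identical members the laboratory FPKM values were 0.778 to 3.51 times that of the wild male. At least 1 of them lay below it for 2 of these 7, Mup17 and Mup19. In zFPKM, which is scaled within each liver, every laboratory estimate of the 10 members lay above the wild male. Mup17 had 3.64 to 3.91 against 3.56, and Mup19 had 3.72 against 3.38.

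**Figure D2:**
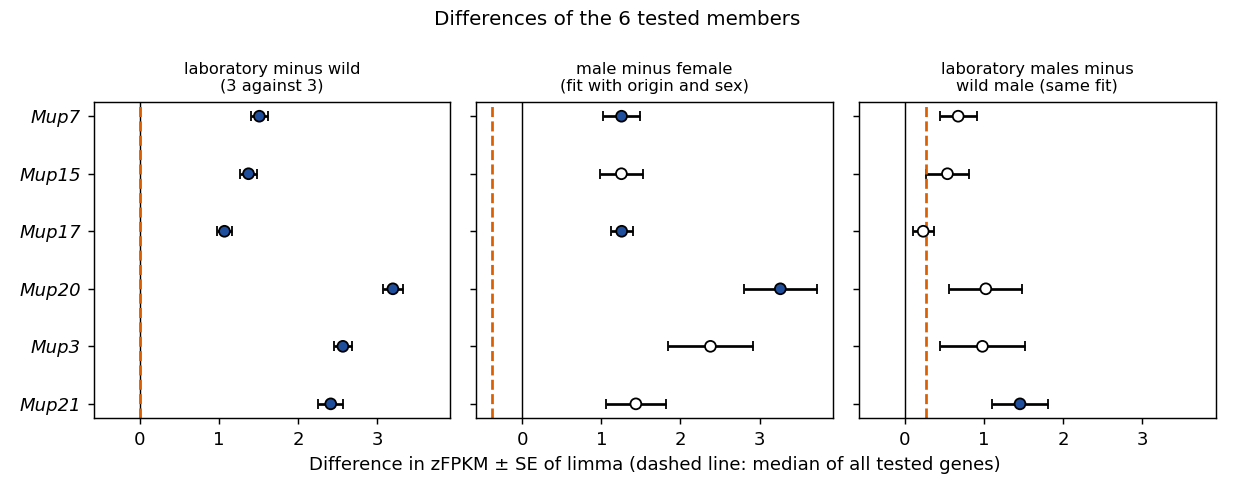
Differences in zFPKM (x axis) of the 6 members with enough values, with the SE of limma as bars, in 3 comparisons. Filled points have an adjusted p under 0.05, and the dashed line is the median of all tested genes. The divergent members Mup20, Mup3 and Mup21 lie furthest to the right between laboratory and wild mice, and between laboratory males and the wild male Mup17 lies close to the dashed line.

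The 2 wild females differed from each other in opposite directions for the 2 kinds of member. All 7 near-identical members were higher in female 3 than in female 2, by 1.44-fold (Mup17) to 9.13-fold (Mup10) with a median of 5.05-fold, and 59.0% of all genes were higher in female 3. The median ratio over 17223 genes with a value above 0 in both was 1.08, with a 5th to 95th percentile of 0.449 to 3.48. Mup17, with the most sequence of its own among the 7, lay within that range, and the other near-identical members lay above it. The 7 share most of their sequence, so they are not independent readings. All 3 divergent members were lower in female 3, by 9.44-fold for Mup21, 28.2-fold for Mup20 and 68.7-fold for Mup3. On its alternate copy the fold of Mup21 was 43.8, and in either copy its level in female 3 was under 1 FPKM. The summed FPKM of the near-identical members was 2.07 times that of the divergent ones in laboratory mouse 3, 5.50 times in the wild male, 6.30 times in wild female 2 and 1656 times in wild female 3. These are single animals, the values are a description, and no test of the difference between 2 mice was possible. Females 2 and 3 also came from different trapping sites, so animal and site cannot be told apart. The summed FPKM of the Kupffer cell markers was also higher in female 3, and its part was not tested.

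Other genes of the family were read in the same females. Of the 12 other Mup genes on chromosome 4, 10 had over 1 FPKM in at least 1 female. All 10 were higher in female 3 than in female 2 and higher in the wild male than in both. All of them but Mup5 share most of their sequence with other Mup genes, so they are not independent readings either. The 3 with the highest mean FPKM were Mup11, Mup1 and Mup2. Mup11 had 6300.2 and 5658 FPKM in laboratory mice 2 and 3, 1850 in the wild male, and 74.0 and 546 in females 2 and 3. Mup1 had 4891 and 2818 FPKM in the laboratory mice, 3547 in the wild male, with 104 and 763 for the females. Mup2 had 5039 FPKM in laboratory mouse 3, 2877 in the wild male, with 117 and 1347 for the females. One of the 10, Mup5, singled out after its values were seen, is itself divergent, with 90.6% coding identity to Mup17. It had 64.5 FPKM in the wild male and 1.12 and 14.3 in females 2 and 3, so it was 12.7-fold higher in female 3. Of the 4 divergent genes with over 1 FPKM in a female, 3 were thus lower and 1 higher in female 3. The remaining divergent genes, Mup4 and Mup6, had at most 0.077 FPKM in either female.

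**Figure D3:**
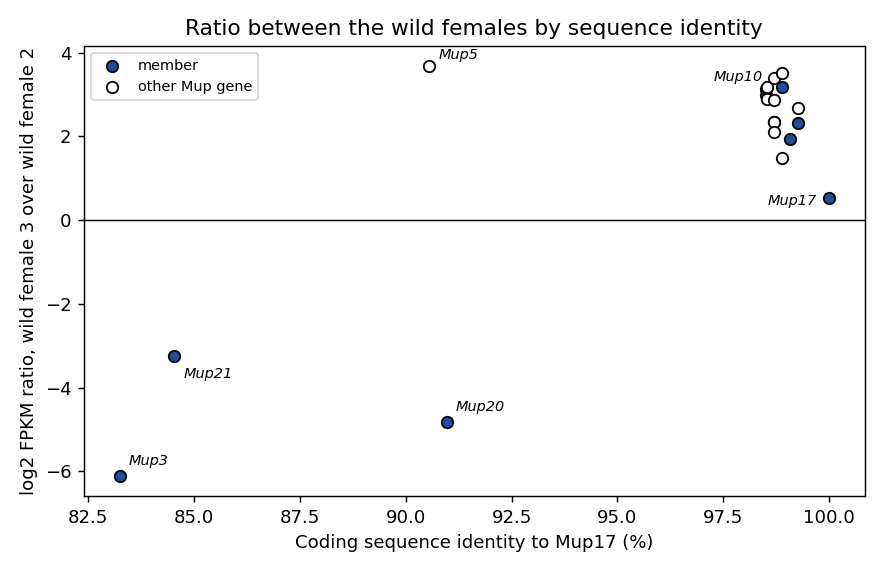
log2 of the FPKM ratio of wild female 3 over wild female 2 (y axis) against the coding identity to Mup17 in percent (x axis), 1 point per Mup gene with over 1 FPKM in either female. Members are filled. Mup3, Mup20 and Mup21 lie below 0, and the other 17 genes, Mup5 at 90.6% identity among them, lie above 0.

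**Figure D4:**
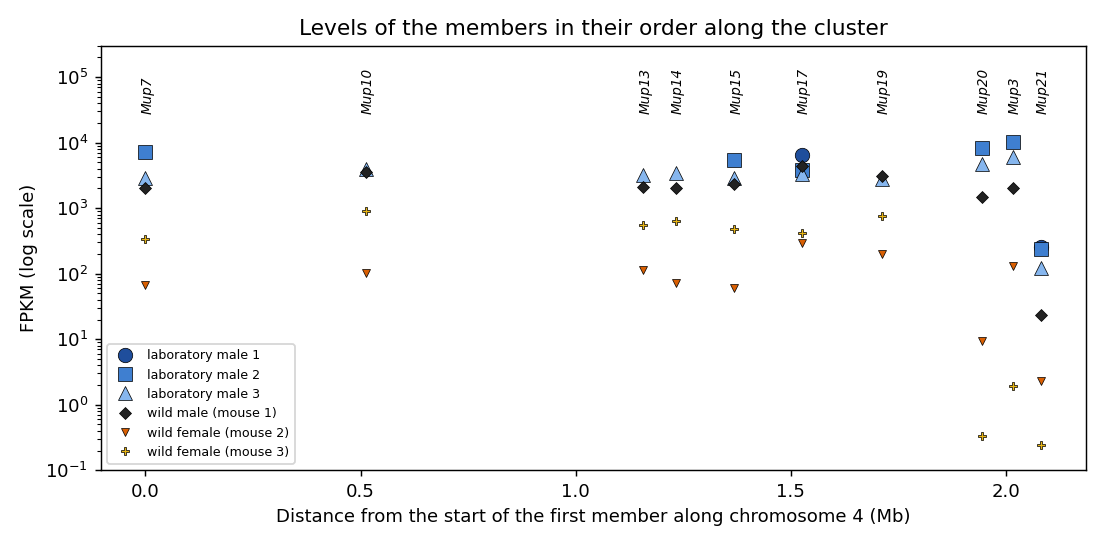
FPKM (log axis) of each member against its distance in Mb from the start of the first member, Mup7, along chromosome 4, 1 point per mouse with laboratory markers drawn larger. The level in wild female 3 is between 336 and 922 FPKM over the first 7 members and at or under 1.91 over the last 3.

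Mup20 shares 322 of its 829 transcript stretches of 100 bases with the pseudogene Mup-ps19. The FPKM of Mup-ps19 was 0.485 to 0.558 times that of Mup20 in each of the 5 mice with both, from 4280.1 in laboratory mouse 2 to 0.162 in wild female 3. The 2 levels cannot be told apart by reads from the shared part. The other 19 pseudogenes on chromosome 4 were lower, 14 of the 20 with a mean under 1 FPKM. In position 2 members overlap a pseudogene, Mup7 with Mup-ps1 and Mup20 with Mup-ps21, and these pseudogenes reached at most 0.728 and 0.248 FPKM. Entries of a member on an alternate sequence of the reference gave 0.985 to 1.0 times the chromosome 4 value for Mup3, Mup14, Mup15 and Mup20. The ratio was 0.448 to 1.41 for Mup7, Mup13 and Mup19 and 0.900 to 4.94 for Mup21. On that alternate copy Mup21 had 555 and 262 FPKM in laboratory mice 2 and 3, 117 in the wild male, with 9.67 and 0.221 for the females, so the order of the mice did not change. On the alternate copies, laboratory mouse 1 had 11475 FPKM for Mup3 and 7281 for Mup20, both above the wild male.

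Calls on the gene lists below are given for limma with the trended prior only, which set SEs far below the spread of the members. Of all tested genes, 7.21% were higher and 7.25% lower in laboratory than in wild mice. For the other comparisons the shares of all genes are those given above. Genes known to be male-biased in mouse liver were mostly higher in laboratory mice. Of 10 such genes, 9 were tested, 7 were higher in laboratory mice and 0 lower (limma), with a median difference of 1.13 zFPKM against 0.01 for all genes. The largest were Hsd3b5 (a ketosteroid reductase, 2.83 ± 0.21), Cyp4a12b (2.67 ± 0.22) and Cyp4a12a (2.66 ± 0.17), which hydroxylate fatty acids, and Elovl3 (a fatty acid elongase, 1.95 ± 0.18). Between male and female 4 of 9 were higher in males, Cyp4a12b by 3.44 ± 0.46, Cyp4a12a by 3.16 ± 0.37, Elovl3 by 2.16 ± 0.41 and Cyp2d9 by 1.24 ± 0.14, with a median of 1.24 against -0.38. Between laboratory males and the wild male 2 of 9 were higher, Hsd3b5 by 1.95 ± 0.25 and Selenbp2 by 0.58 ± 0.16, with a median of 0.39 against 0.28. Cyp2d9, the highest of them by mean zFPKM, had 528 to 789 FPKM in laboratory males, 655 in the wild male, with 43.6 and 44.3 for the females, so its level in the females was nearly equal.

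Of 13 genes known to be female-biased, all were tested, and 12 were lower in laboratory mice and 0 higher (limma), with a median difference of -3.78. The largest were Cyp2b9 (-4.81 ± 0.34), Sult3a1 (-4.63 ± 0.36), Sult2a1 (-4.25 ± 0.39) and A1bg (-4.07 ± 0.40), and since all 4 were listed at 0 in every laboratory male these differences depend on the floor of -3. Between male and female 9 of 13 were lower in males, and between laboratory males and the wild male 9 of 13 were lower in laboratory males, with medians of -2.83 and -1.49. Prlr, the prolactin receptor and the highest of the list by mean zFPKM over the 6 mice, had 10.7 to 14.5 FPKM in laboratory males, 48.5 in the wild male, with 143 and 127 for the females. Cyp2b13, the lowest by that mean, was listed at 0 in laboratory males and had 0.303 FPKM in the wild male, with 387 and 262 for the females. A1bg, Sult2a1 and Sult3a1, also at 0 in laboratory males, had 0.459, 0.254 and 0.438 FPKM in the wild male. For these genes and Cyp2b13, the difference between laboratory males and the wild male therefore rests on values near the floor.

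Among 16 receptors and transcription factors of the hormonal control of these genes, 2 were higher and 1 lower in laboratory mice (limma). This stands against 7.21% and 7.25% of all tested genes, and the median difference was -0.04. Socs2 (0.81 ± 0.20), a suppressor of cytokine signalling that STAT5 induces, and Bcl6 (0.60 ± 0.19), a repressor of female-biased genes, were higher. Cux2, a repressor found in female liver (-1.31 ± 0.43), was lower. Cux2 had 0.050 to 0.090 FPKM in laboratory males, 0.081 in the wild male, with 6.10 and 7.79 for the females. Between male and female 0 were higher and 2 lower in males, Cux2 by -2.70 ± 0.47 and Bcl6 by -1.14 ± 0.22 (limma). Between laboratory males and the wild male 2 were higher, Bcl6 by 1.36 ± 0.21 and Socs2 by 1.13 ± 0.27. Ghr, the growth hormone receptor and the highest of the list by mean zFPKM, had 104 to 133 FPKM in laboratory males and 167 to 204 in wild mice (difference 0.02 ± 0.12). Stat5b, which carries the growth hormone signal and was picked out after its values were seen, had 5.34 to 6.84 FPKM in laboratory males, 11.7 in the wild male, with 16.8 and 18.1 for the females (difference -0.19 ± 0.19, limma adjusted p = 0.57).

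Other lipocalin genes of the liver were mixed. Of 10, 8 were tested, 2 were higher and 2 lower in laboratory mice (limma), with a median of 0.14. Orm2 (0.90 ± 0.12) and Orm1 (0.57 ± 0.10), acute-phase orosomucoids, were higher, and Orm3 (-1.36 ± 0.18) and Lcn2, which binds bacterial siderophores (-0.45 ± 0.17), were lower. Lcn2 had 3.10 to 17.1 FPKM in laboratory males, 5.01 in the wild male, with 74.7 and 124 for the females. The wild male thus lay among the laboratory males, and only the females lay above them. Between male and female 0 of 8 passed in limma, with 1 at an unadjusted p under 0.05, and between laboratory males and the wild male 1 of 8 did, Orm2 by 1.09 ± 0.21. Rbp4, the carrier of retinol in plasma and the highest of them by mean zFPKM, had 1459 to 2250.2 FPKM in laboratory males and 3749.5 to 4375 in wild mice (difference -0.13 ± 0.09). Ptgds, the lowest tested by that mean, had 1.80 to 8.15 FPKM in laboratory males and 1.18 to 4.12 in wild mice.

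Across the 6 mice, the tested genes outside the family whose zFPKM followed Mup17 most closely were Cyp2d9, Reg4, C6, Gm18635 and Fitm1. Their root mean square differences from Mup17, after each gene was centred over the mice, were 0.126, 0.181, 0.195, 0.205 and 0.207 zFPKM, against a median of 0.842 over 18606 genes. Cyp2d9 and C6, a late complement component, are on the male-biased list. C6 had 39.5 to 56.5 FPKM in laboratory males, 48.2 in the wild male, with 1.67 and 6.42 for the females. Fitm1, a lipid droplet protein, had 17.0 to 27.9 FPKM in laboratory males, 25.0 in the wild male, with 1.72 and 4.33 for the females. Reg4 was at or under 0.223 FPKM in every mouse, so its likeness rests on values near the floor. The 6 points share their libraries, and the likeness is a description.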

How the data were processed

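Liver RNA of 6 mice was measured once each. Per the study's methods, the authors sequenced stranded mRNA libraries as single reads of 100 bases. The aligner was kalign, the reference was GRCm38.p6 with repeats masked, and FPKM came from Cufflinks-type software of the Tuxedo suite. Both the deposited FPKM and the deposited zFPKM, a score the authors made from log2 FPKM per mouse, were used. The tables hold no counts, so the count test (edgeR) of the study's methods could not be run, and no depth-based interval is given. Each sample is 1 animal.

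The members and the gene lists were chosen with earlier results of these data known. Entries on chromosome 4 were used, and failed estimates were missing. A 0 in laboratory mouse 1 was also missing where every other mouse with an estimate had zFPKM above 0. Any other 0 of that mouse stayed as measured. Genes with zFPKM above -3 in at least 3 mice and at least 2 values per group were tested, lower values being set to -3, with limma 3.58.1 in R 4.3.3 (eBayes with trend, Benjamini-Hochberg, adjusted p under 0.05). Laboratory was compared with wild with no covariate, and sex and origin in a fit with both. Mean FPKM was compared by two-sided exact permutation tests. All 10 members were named. Of other Mup genes the 3 highest by mean FPKM were named, of each list the highest and lowest tested gene by mean zFPKM and up to 4 that passed, by size, and the 5 genes nearest in pattern to the member with the highest mean zFPKM among those with 6 values. Transcripts came from GENCODE M21 and promoters from RefSeq. Starts in the files count from 0, so 1 was added. The procedure was tested on simulated data. Python 3.11.15, pandas 2.3.3 and Biopython 1.88 were used. Of the sequences, 8 of 10 members had a promoter entry. Cufflinks' bounds served only for relative depth. Chromatin assays were not analysed here. A gene of the list of receptors and transcription factors is not reported here and was left out of its counts.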

Additional observations from a re-analysis of the deposited data

How the results depend on the processing

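Of the 6 tested members, all were higher in laboratory than in wild mice with the settings of the report. The count was 1 with a floor of -20, log2(FPKM + 1), log2(FPKM + 0.1), the median of each mouse set to 0, quantile normalization, no trend or sex as a covariate, and 0 with no filter on low values or a robust prior. It was 10 of 10 where 1 laboratory value was enough. Leaving out 1 mouse gave 3 to 6, the 3 being without laboratory mouse 3. With the zeros of laboratory mouse 1 taken as measured, 3 members were lower, and Mup7 turned to -0.77 and, against the wild male, to -1.60.

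Between male and female the count of 3 became 1 with a floor of -5 or -20, log2(FPKM + 0.1) or a robust prior. It became 0 with no filter, log2(FPKM + 1), the median set to 0, quantile normalization or no trend, and 6 where every mouse had to exceed -3. Leaving out 1 mouse gave 0 to 6. It was 0 without wild female 2 or 3 and 6 without laboratory mouse 1 or 2.

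Between laboratory males and the wild male the count of 1 became 0 with a floor of -5 or -20, no filter, log2(FPKM + 0.1), the median set to 0, quantile normalization, no trend, a robust prior or Mup21 read from its alternate sequence. It became 5 where every mouse had to exceed -3. Leaving out 1 mouse gave 0 to 5, the count being 0 without wild female 2 or 3, 5 without laboratory mouse 1 and 4 without laboratory mouse 2. Mup17 turned to -0.047 with the median set to 0. Without the wild male neither of these last 2 comparisons could be fitted. The causes were not tested.

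Over the 366 differences of a member under an alternative, 251 kept direction and side of the threshold, 92 lost the call, 20 gained one and 3 reversed. Between laboratory and wild mice 1343 genes were higher and 1350 lower, against 1386 and 6863 with log2(FPKM + 1) and 1528 and 7070 with log2(FPKM + 0.1), where the median of all genes was -0.19 and -0.47. Over all alternatives other than leaving out a mouse the counts were 14 to 3502 and 7 to 7070. The corresponding counts were 2 to 211 and 10 to 380 between male and female (13 and 59 in the report) and 105 to 2070 and 67 to 5032 between laboratory males and the wild male (1135 and 249). The robust prior, the copy listed for laboratory mouse 1, the alternate sequence of Mup21 and the use of 1 laboratory value were chosen after seeing the data. No paired analysis was possible because the mice of the 2 groups are different animals and the labels give no replicate numbers that could pair them. Absolute depth is unknown, estimates below 1 FPKM rest on few reads, and near-identical copies limit the split among members.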
